A study of Oryza sativa with 4 samples.

Results

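The genes described here are 5 transcription regulators of the panicle meristem and of flowering, chosen by identifier from a deposited list of 287 rice genes. They are MADS34 (OS03G0753100, also known as *OsMADS34*/*PAP2*), a WUSCHEL-related homeobox gene (OS05G0118700), a HAP2 subunit gene (OS12G0618600), a HAP3 subunit gene (OS07G0606600) and a NAC domain gene (OS04G0460600). Their identifiers place them on chromosomes 3, 5, 12, 7 and 4. The samples were young panicles shorter than 1 mm, collected from 80 OX*OsAFB6* plants and 80 control plants, and each genotype gave 2 libraries. All plants derived from the japonica variety Zhonghua11, the transformation receptor, and were sampled at the change from vegetative to reproductive growth. In OX*OsAFB6* a vector meant to overexpress *CCT05* had inserted upstream of *OsAFB6*, an auxin receptor gene, which the line is described as overexpressing. The mutant is thus a single insertion line, and its panicles were pooled within each library. The labels call the controls negative plants of that event, while the study's methods speak of plants regenerated from calli that took up no foreign DNA. The libraries of a genotype are portions of 1 harvest, so their spread leaves out variation between growths.

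A rice panicle forms when the shoot apical meristem turns into an inflorescence meristem, which lays down branch meristems and then spikelet meristems. The longer the branching phase lasts, the more branches and spikelets are made. MADS34 is a MADS-domain factor of the SEPALLATA group that promotes the passage from branch to spikelet identity in rice, where it works with the relatives MADS14, MADS15 and MADS18. WUSCHEL-related homeobox proteins act in meristems and in the outgrowth of lateral organs. HAP complexes, also called NF-Y, bind CCAAT boxes through a HAP2 subunit joined to a HAP3 and HAP5 pair. In rice the HAP3 subunit DTH8 delays heading in long days. NAC domain proteins are transcription factors found in plants only.

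Names for these loci differ between sources. The table names OS05G0118700 WOX2, whereas the study calls this locus *WOX3*, and the name WOX2 is used here. The HAP and NAC genes carry a description but no gene name in the table, and the study calls them *OsHAP2F*, *OsHAP3F* and *OsNAC2*. In the RefSeq annotation of rice (ASM3414082v1), MADS34, HAP3F and NAC2 each matched 1 gene on the chromosome of the identifier, and no gene on those chromosomes carried the names HAP2F, WOX2 or WOX3.

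The deposited values are means over the libraries of a genotype. Because a read was worth the same for every gene, the whole reads of both libraries could be worked out from each mean. Values below are normalized read counts, that is reads divided by the size factor of their library. The size factors were 1.01 and 1.14 for the OX*OsAFB6* libraries and 0.887 and 0.977 for the control libraries, and each library is named by its size factor because the means do not carry replicate numbers. All 10 means of the 5 genes gave a single pair of reads. The list held only genes that the authors had called different, so the difference between genotypes is what put each gene there and was not tested again. An exact permutation test of 2 libraries against 2 could not go below p = 0.333. In the same list, 8 genes described as photosystem, chlorophyll or related proteins were used as markers of green tissue. All were lower in the mutant, by 2.57-fold to 3.72-fold, beside 79.8% of all listed genes. Their median log2 ratio was -1.67, against -1.84 over all lower genes, so the markers did not stand out in the list. Their summed normalized read count was 2261 and 2711 in the OX*OsAFB6* libraries against 7612 and 6758 in the control libraries, and 0 of the 8 genes had a library without reads. The part of green tissue in the values below was not tested, and fewer cells of a type cannot be told apart from less RNA per cell in whole panicles. No listed identifier could be assigned to *OsAFB6* itself. The gene OS02G0178100 is described as an auxin signaling F-box protein, but its identifier lies on chromosome 2, where the study places *CCT05*, the gene carried by the vector. Its description names a protein of chromosome 3, where the study places *OsAFB6*. The study also reports that overexpression of *CCT05* could not be detected in this line. Which gene the values belong to could not be settled. Its authors' mean was 49357 for OX*OsAFB6*, against 15747 for the control. It was not used as a check of the overexpression.

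Of the 5 regulators, MADS34, WOX2 and the HAP2 subunit were higher in OX*OsAFB6*, and the HAP3 subunit and the NAC domain gene were lower. In the whole list 20.2% of the genes were higher and 79.8% lower. The 3 higher regulators differed by 2.49-fold to 3.19-fold, below the median of 3.54-fold over all 58 higher genes. The 2 lower regulators differed by 3.91-fold and 4.90-fold, above the median of 3.58-fold over all 229 lower genes. In all 5 genes the genotypes were free of overlap, which held for 100% of the 284 listed genes whose reads were resolved. The lack of overlap therefore says nothing particular about these regulators.

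**Figure D1:**
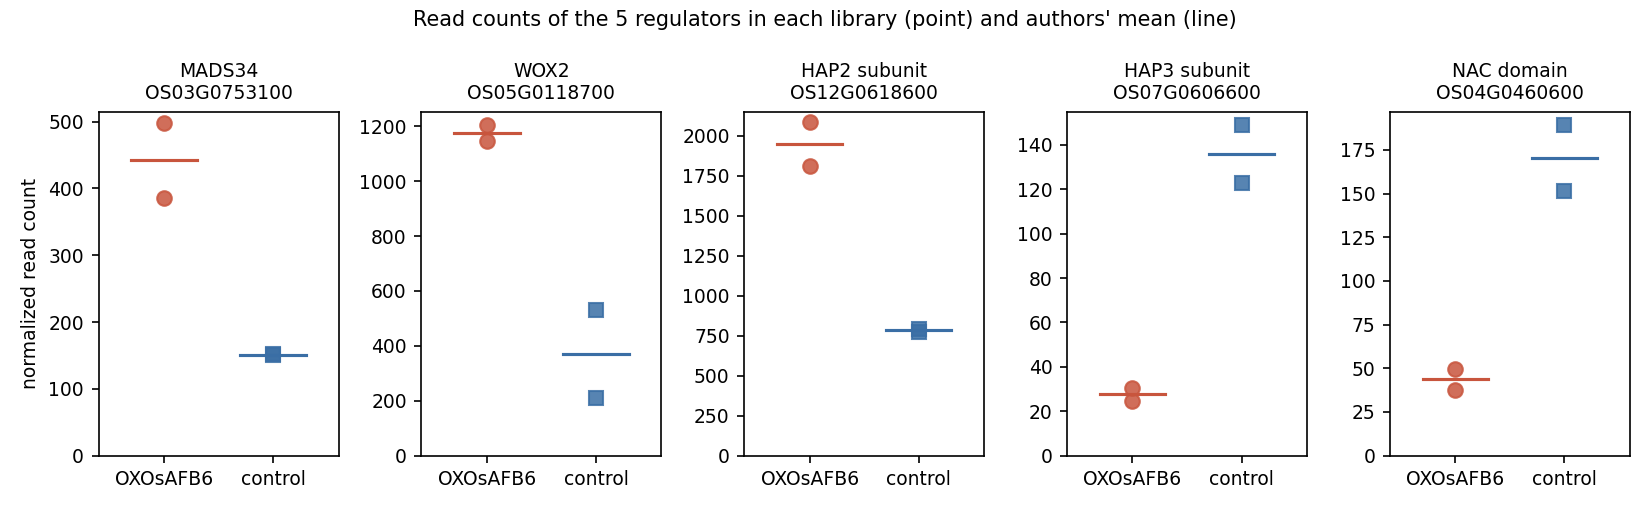
Normalized read counts (y axis, starting at 0, a separate scale for each gene) of the 5 regulators in the 2 OXOsAFB6 libraries (circles) and the 2 control libraries (squares), with the authors' mean as a line. The first 3 genes are higher in the mutant and the last 2 lower, and the control libraries lie almost on each other for MADS34 and the HAP2 subunit but far apart for WOX2.

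For MADS34, the spikelet meristem factor, the OX*OsAFB6* libraries with size factors 1.01 and 1.14 yielded 390 and 568 reads. The control libraries with size factors 0.887 and 0.977 yielded 133 and 149. After normalization the mutant stood at 386 and 498, against 149.9 and 153 in control panicles. Both mutant libraries were thus high, and the control libraries were nearly equal. The authors' means of 442 and 151 stand in a ratio of 2.92, or 1.55 on the log2 scale. The 95% counting interval of the ratio, from reads pooled within a genotype, was 2.57 to 3.37, and like all intervals below it covers counting error only. Even the closest pair of libraries, the lower mutant library against the higher control library, differed by 2.53-fold. The mutant libraries differed from each other by 1.29-fold (interval 1.13 to 1.47), more than counting error alone. The control libraries differed by 1.02-fold (interval 0.7999 to 1.30), which does not exceed counting error.

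The MADS34 locus is next to that of MADS14 on chromosome 3 in the RefSeq annotation, with 0 genes between them. MADS14 was not in the deposited list. Neither were MADS15 and MADS18, the other partners of MADS34 in rice. A gene missing from the list may have missed the authors' threshold, had too few reads or been left out before their test, and its values were not analysed here. The listed gene nearest to MADS34 by identifier, OS03G0758900, was lower in the mutant, with authors' means of 266 and 696. MADS34 was the sole MADS-box gene in the list by description, and it ranked 41 of 58 higher genes by fold change.

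WOX2, the WUSCHEL-related homeobox gene, was covered by 1216 and 1308 mutant reads, and by 185 and 517 control reads. Normalization turned these into 1204 and 1146 for OX*OsAFB6*, against 209 and 529 for the control. The mutant libraries agreed within counting error, at a ratio of 1.05 (interval 0.971 to 1.14). The control libraries did not, and the library with size factor 0.977 was 2.54-fold above the other (interval 2.14 to 3.02). Of the 271 listed genes with resolved reads in every library, 5 had a larger difference between the control libraries. The authors' means of 1175 and 369 give a ratio of 3.19 (counting interval 2.86 to 3.39), but the ratio between single libraries ran from 2.17 to 5.77. Without the control library at 529 the ratio was 5.63, and without the one at 209 it was 2.22. The size of the WOX2 difference thus depended on the control library. Its direction could not, because both mutant libraries lay above both control libraries.

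The HAP2 subunit gene, whose product recognises the CCAAT box, was read 1831 and 2381 times in OX*OsAFB6*, against 685 and 775 times in control panicles. Normalized, the mutant libraries held 1813 and 2086 and the control libraries 772 and 793. All 4 libraries kept close to the mean of their genotype. The ratio of the authors' means, 1949 over 783, was 2.49 (counting interval 2.35 to 2.65), and single libraries gave between 2.29 and 2.70. This was the smallest fold change of the 5 regulators and ranked 57 of the 58 higher genes. A fold change below 2.40 did not occur among the higher genes of the list. The mutant libraries still differed by 1.15-fold (interval 1.08 to 1.22), more than counting error alone. The control libraries differed by 1.03-fold (interval 0.926 to 1.14), which stayed within it.

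The HAP3 subunit gene, which codes for a histone-fold partner in the HAP complex, went the other way. Only 25 and 35 reads came from OX*OsAFB6*, against 132 and 120 from control panicles. On the normalized scale this was 24.8 and 30.7, against 149 and 123. Mutant values were low in both libraries, and the lower control library was still 4.01-fold above the higher mutant library. The authors' means of 27.7 and 136 give a 4.90-fold lower level in the mutant, or -2.29 on the log2 scale. With only 60 mutant reads, the counting interval was wide, from 3.65-fold to 6.54-fold. The difference between the libraries of a genotype stayed within counting error in the mutant (1.24-fold, interval 0.720 to 2.16) and in the control plants (1.21-fold, interval 0.939 to 1.56). By fold change the gene ranked 69 of the 229 lower genes. In the RefSeq annotation 7 genes lie between HAP3F and MADS18, which was not in the list.

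The change of the HAP subunits relative to each other can be read without any size factor, because both were counted in the same library. The reads of the HAP2 gene divided by those of the HAP3 gene came to 73.2 and 68.0 in the OX*OsAFB6* libraries and to 5.19 and 6.46 in the control libraries. The quotients are not per length and give no order of the levels of the subunits. Their change between genotypes was 12.2-fold as a ratio of geometric means, and single libraries gave from 10.5-fold to 14.1-fold. The counting interval of the lowest mutant quotient, 48.8 to 97.9, lay far above that of the highest control quotient, 5.32 to 7.89. Both genes were chosen from a list of different genes and went opposite ways, so separated quotients follow from that choice. The size of this contrast is a description. These were the only listed genes described as HAP subunits, and DTH8, the HAP3 gene of heading date, was not among the listed genes.

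Reads of the NAC domain gene numbered 50 and 43 for OX*OsAFB6*, against 168 and 148 for the control. Normalized, these were 49.5 and 37.7, against 189 and 152. The genotypes stood clearly apart, with a smallest difference of 3.06-fold between single libraries and a largest of 5.03-fold. The authors' means of 43.6 and 170.4 give a 3.91-fold lower level in the mutant (counting interval 3.10 to 4.997), which is -1.97 on the log2 scale. It ranked 97 of the 229 lower genes. The mutant libraries differed by 1.31-fold (interval 0.857 to 2.02) and the control libraries by 1.25-fold (interval 0.996 to 1.57), so counting error covered both. It was also the sole NAC domain protein by description.

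**Figure D2:**
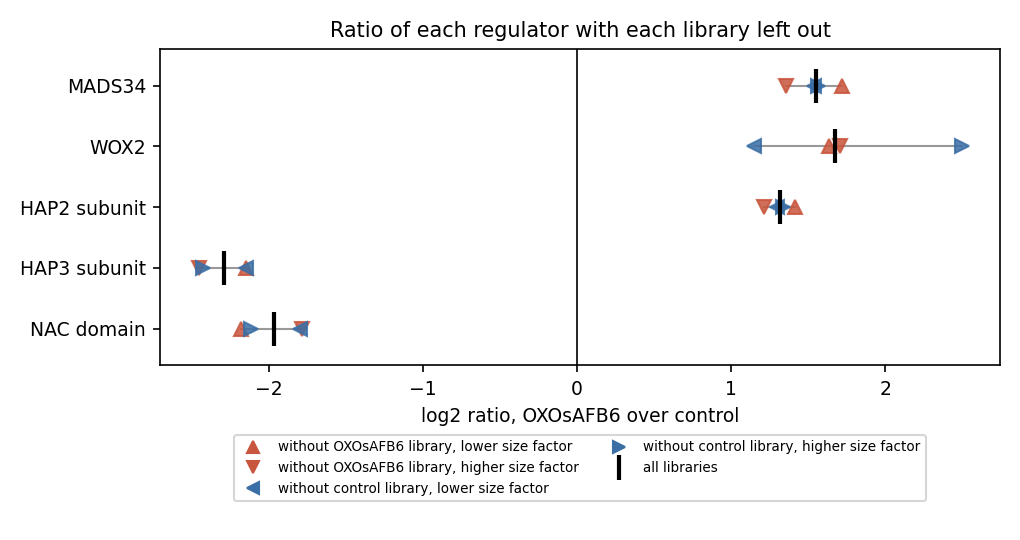
The log2 ratio of OXOsAFB6 over control (x axis) for each regulator with all libraries (black bar) and after removal of single libraries (triangles). WOX2 spans 1.15 to 2.49, set by its control libraries, while the other 4 regulators have narrower ranges, such as 1.21 to 1.41 for the HAP2 subunit.

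The regulators also differed in how they varied among the 4 libraries. Likeness was measured as the root mean square difference of log2 values over the 4 libraries after each gene was centred on its own mean, where 0 means the same pattern. MADS34 and the HAP2 gene differed by 0.12, and the HAP3 and NAC genes by 0.29. WOX2 was further from the other higher regulators, at 0.51 from MADS34 and 0.53 from the HAP2 gene. These distances are descriptions over 4 libraries and carry no test. In reads of the same library, WOX2 had 3.12 and 2.30 times the reads of MADS34 for OX*OsAFB6*, against 1.39 and 3.47 times for the control, so that the genotypes overlapped. The quotient of MADS34 to the HAP2 gene was steadier, at 0.213 and 0.239 for OX*OsAFB6* against 0.194 and 0.192 for the control.

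Among the other 283 genes with resolved reads, the one most like the HAP2 gene was OS07G0151800, of unnamed function, at a distance of 0.029. The same gene was the second most like MADS34, at 0.12, after OS05G0124600 at 0.10, also without a named function. The genes most like WOX2 were OS12G0208900 and SPL8 (OS04G0656500), a squamosa promoter-binding-like gene, at distances of 0.10 and 0.11. SPL8 stood at 604 and 599 normalized reads for OX*OsAFB6*, against 126 and 299.9 for the control. SPL8 was picked for its likeness to WOX2, so the equal mutant libraries and unequal control libraries they share follow from that choice. The gene most like the HAP3 gene was GH3.3 (OS01G0221100), an enzyme gene for joining auxin to amino acids, at 0.065. GH3.3 stood at 42.6 and 59.6 for OX*OsAFB6*, against 264 and 226 for the control. OS04G0691400 followed at 0.066. For the NAC gene the nearest were OS06G0613200, at 0.018, and OS08G0502700, described as a putative aminotransferase, at 0.12.

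The unequal control libraries of WOX2 were part of a wider pattern in the list. Of the 55 genes that were higher in OX*OsAFB6* and had resolved reads in every library, 50 had the higher value in the control library with size factor 0.977, with a median ratio of 1.53 between the control libraries. Among the 216 lower genes, 81 had the higher value in that library. That library thus stood nearer to the mutant than the other control library for most of the higher genes. It also did so for 135 of the 216 lower genes. The HAP3 and NAC genes were among these, although their control libraries differed within counting error. In the OX*OsAFB6* libraries the higher value lay in the library with size factor 1.14 for 30 of the 55 higher genes and for 138 of the 216 lower genes. The lower genes were thus about as unevenly split in the mutant as in the control, whereas the higher genes were split far more unevenly in the control. What differed between the control libraries was not tested. MADS34 and the HAP2 gene, at 1.02-fold and 1.03-fold, lay among the higher genes with nearly equal control libraries. Without that control library the ratio of MADS34 was 2.95, that of the HAP2 gene 2.52, that of the HAP3 gene 5.37-fold lower and that of the NAC gene 4.34-fold lower.

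**Figure D3:**
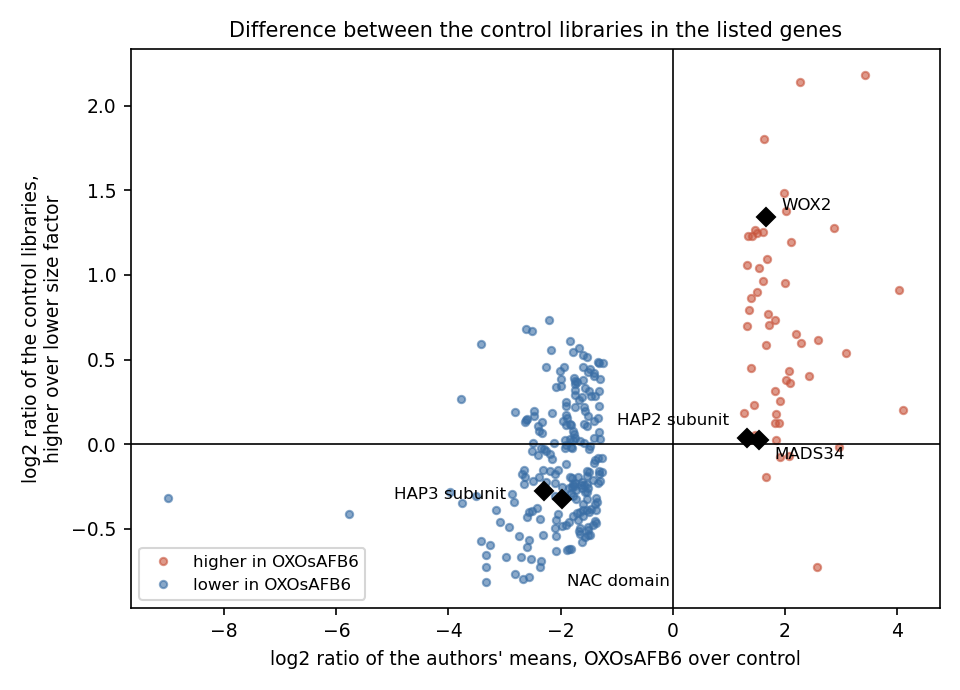
Each point is a listed gene with reads in every library, placed by its log2 ratio of OXOsAFB6 over control (x axis) and by its log2 ratio of the control library with size factor 0.977 over the one with 0.887 (y axis), with the 5 regulators as black diamonds. Most higher genes, 50 of 55, lie above 0 on the y axis, with WOX2 near the top at 1.34 and MADS34 and the HAP2 subunit close to 0.

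Other genes of the same processes were looked up by identifier. Of 14 genes known for panicle branching and meristem activity in rice, 2 were in the deposited list, and both were higher in OX*OsAFB6*, beside 20.2% of all listed genes. The share of all rice genes that reached the list was not analysed here, so neither count is read as standing out. The first is LAX (OS01G0831000), the LAX PANICLE transcription factor needed to form axillary meristems in the panicle. LAX reached normalized read counts of 231 and 305 in OX*OsAFB6*, against 67.6 and 83.9 in control panicles, and its authors' means of 268 and 75.8 stand in a ratio of 3.53. The second is FL (OS04G0598300), the rice relative of *LEAFY* that is also known as RFL and APO2 and keeps the inflorescence meristem active. FL reached 6552 and 7140 in OX*OsAFB6*, against 2081 and 3370 in control panicles, a ratio of 2.51 between authors' means of 6846 and 2725. In both genes every mutant library was above every control library, but the genotypes were free of overlap in 100% of the 284 resolved listed genes. In FL the control library with size factor 0.977 was 1.62-fold above the other. The remaining 12 genes, among them APO1, MOC1, FZP, OSH1, SPL14 and CKX2, were not in the list. For CKX2 the study reports a lower level in young mutant panicles of a later summer by qRT-PCR. A gene outside the list can therefore still differ. Of 10 genes known for control of heading date, among them Hd1, Hd3a, Ehd1, Ghd7 and DTH8, 0 were in the list. From qRT-PCR of leaves, the study reports Ehd1 and Hd3a as strongly lowered in OX*OsAFB6*, and Hd1 and Ghd7 as similar to the control. Absence from this panicle list therefore does not show that these genes were unchanged in leaves. Hd3a codes for a florigen, a mobile signal that is made in the leaf and starts flowering.

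By family terms in their names or descriptions, 20 listed genes were grouped as transcription regulators, the 5 regulators included. Terms such as zinc finger or response regulator do not show that a gene controls transcription. Of the 20 genes, 8 were higher and 12 lower in OX*OsAFB6*, so 40.0% were higher, against 18.7% of the other 267 listed genes. Without the 5 regulators, 5 of 15 were higher. The higher genes were the 3 regulators above, LAX, FL, SPL8, the homeobox-leucine zipper gene ROC4 and a type A response regulator (OS02G0631700), a cytokinin signaling gene. The response regulator had the largest ratio of the 8 genes, 4.87, from authors' means of 124 and 25.5. Grouped by description, the lower genes comprised all 4 zinc finger genes, 2 helix-loop-helix genes, 3 of 4 homeobox-leucine zipper genes and 1 TCP gene beside the HAP3 and NAC genes. LAX, which was higher, is also known as a helix-loop-helix factor, although its description does not say so, so that family went both ways. The lowest among them was OS08G0463500, described as a putative zinc finger protein, at 6.45-fold lower from authors' means of 12.02 and 77.5. All 8 higher regulators had the higher control value in the library with size factor 0.977, from 1.02-fold in MADS34 to 2.54-fold in WOX2. The same held for 50 of the 55 higher genes with resolved reads in every library, so it is not particular to regulators. For 4 of the 8 the difference stayed within counting error.

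**Figure D4:**
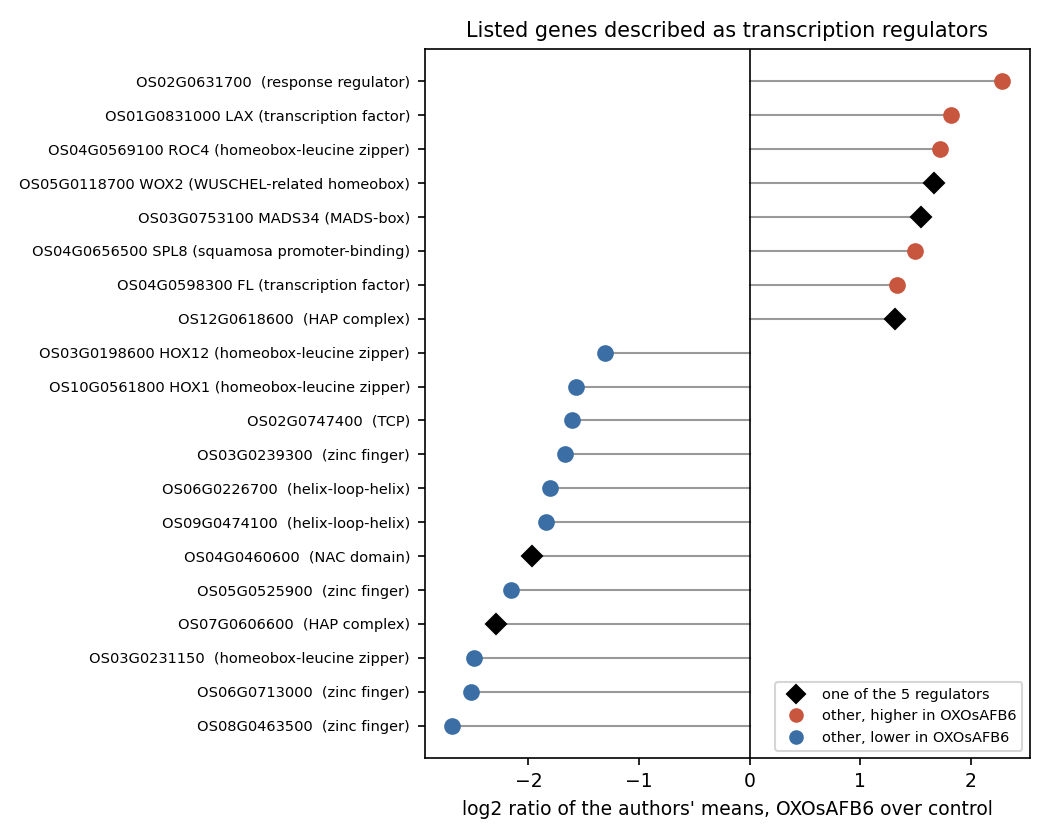
The log2 ratio of the authors' means, OXOsAFB6 over control (x axis), for the 20 listed genes grouped as transcription regulators by family terms (y axis, with identifier, gene name where the table has one, and family). Black diamonds mark the 5 regulators, which lie between -2.29 for the HAP3 subunit and 1.67 for WOX2, with 8 of the 20 genes above 0.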

How the data were processed

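The labels give 2 libraries per genotype. The authors' deposited table holds 2 columns of means headed RPKM, which are a signal: gene reads over the size factor of their library, averaged within a genotype. The submitters' notes name Bowtie 0.12.2 and the builds IRGSP-1.0 and mm8 without a role. The counting tool, annotation and strand setting are not given in the sources used here, so reads shared with overlapping or similar genes stay uncertain. The columns with the authors' log2 fold change, p-value and adjusted p-value were not used.

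Whole reads per library were worked out from the means by finding the value of 1 read in each library (Python 3.11.15, numpy 2.4.6). Both means resolved to 1 pair of reads in 284 of 287 genes. Tested on simulated data, 569 of 574 means gave the true reads, 5 had several possible pairs and 0 were wrong. The simulation set some genes to the lowest reads, from which the value of 1 read is found. Its size factors came from a range that left out the control factor of 0.887, so it did not cover every setting of the data. Intervals are exact Clopper-Pearson intervals on shares of reads at 95% (scipy 1.17.1). The depth of whole libraries is unknown, and over resolved genes a library held between 196812 and 388885 reads.

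The 5 genes and all lists were chosen with earlier results of these data known. Beside them, the text names the 2 genes most like each regulator (0.5 added before log2), the listed genes of the panicle and flowering lists, and the regulators of largest change in each direction. SPL8 fell under this rule, and ROC4, OS02G0178100 and OS03G0758900 were named after their values were seen. Identifiers of the panicle and flowering lists were written from knowledge, so a gene may also be missing through a wrong identifier. Of the 14 panicle genes 11 had their symbol in the RefSeq table, 10 of them on the chromosome of the identifier, and of the 10 flowering genes 7 did, all 7 on that chromosome. A further gene of the flowering list is not reported here. Sequences of promoters and proteins were not used here, so the planned search for motifs was not run. Phenotype data of the study were not analysed here. The alternatives were pseudocounts of 1 and 10, no size factors, a geometric mean, each library left out, filters on low means and a wider rounding tolerance.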

Additional observations from a re-analysis of the deposited data

How the results depend on the processing

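None of the 40 alternative values of the 5 ratios changed direction, and 33 moved by less than the spread between libraries. Leaving out a library, a pseudocount or a geometric mean could not reverse a direction, because the genotypes did not overlap in these genes. The spread came from the same libraries. For WOX2 it was 0.67 on the log2 scale, so that even a fall from 1.67 to 1.15 counted as smaller. Without size factors the log2 ratio of all listed genes shifted by a median of 0.21, and it became 1.76 for MADS34, 1.53 for the HAP2 gene and -2.07 for the HAP3 gene. A pseudocount of 10 moved the HAP3 gene to -1.95. After removal of single libraries, the log2 ratio ran from 1.35 to 1.72 for MADS34, 1.15 to 2.49 for WOX2, 1.21 to 1.41 for the HAP2 gene, -2.46 to -2.15 for the HAP3 gene and -2.18 to -1.78 for the NAC gene. The log2 change of the HAP2 to HAP3 quotient, an alternative chosen after seeing the data, ran from 3.45 to 3.77. With a lower mean of at least 100, 31 of 157 listed genes were higher in place of 58, since fewer genes were left, and the HAP3 and NAC genes fell below that limit. No paired analysis was possible because the deposited means carry no replicate numbers. A wider rounding tolerance left all 10 means of the regulators with the same reads.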
